A study of Mus musculus with 36 samples.

Results

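Hox genes were examined by cluster and by paralog number in 2 stages of a mouse culture, embryonic stem cells (ESC) and the neural precursor cells (NPC) made from these. The rule that defines the members uses gene symbols and no measured value. They were 38 of the 51734 gene symbols in the count table, 10 in cluster A on chromosome 6, 10 in cluster B on chromosome 11, 9 in cluster C on chromosome 15 and 9 in cluster D on chromosome 2. All 38 had enough counts to be tested. Polyadenylated RNA was sequenced from E14 cells, an established mouse ESC line, in 6 groups of 3 libraries. WT was the parental genotype as labelled, dCD carried catalytically dead forms of both MLL3 and MLL4, and MLL2dTAG carried MLL2 fused to a degron (a peptide that marks its protein for degradation once the compound dTAG-13 is added). Each genotype was measured as ESC and as NPC. NPC were made with retinoic acid (RA) and harvested on day 4, with dTAG-13 at 2 µM from day 1. All 18 libraries, WT and ESC included, have dTAG-13 as their labelled treatment, so no group lacked the compound. How long ESC were treated is not stated in the sources used here. Each genotype was a line of its own, so an edit and a difference between lines cannot be told apart. The labels do not say whether replicates were separate cultures, so the p-values measure the spread between these libraries, which may be technical.

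Hox genes encode homeodomain transcription factors that give cells their position along the body axis. Within a cluster the genes lie in the order of their paralog numbers, and in the embryo low-numbered genes at the 3′ end are switched on earlier and further forward than high-numbered genes at the 5′ end. In the neural tube they pattern the hindbrain and spinal cord, and RA is a known inducer of the 3′ genes. Silent Hox clusters in ESC carry H3K27 methylation laid down by Polycomb together with H3K4 methylation, for which MLL2 is the known enzyme, while MLL3 and MLL4 act mostly at enhancers. Here paralogs 1 to 4 are called anterior (11 members), 5 to 8 central (11 members) and 9 to 13 posterior (16 members).

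Total counts were 19.4 to 46.0 M per library, so that 3 counts, used as the floor for a gene without counts, stood for 0.0652 to 0.154 CPM in a library. Levels are given as CPM, the counts of a gene per M counts of the library, after TMM scaling (a per-library factor that aligns the bulk of genes). Of the 18 libraries, 18 correlated best with a library of their own group. The summed level of 8 ESC markers was 3537 to 4302 CPM in ESC libraries, 41.4 to 42.2 CPM in NPC WT, 68.8 to 76.5 CPM in NPC dCD and 206.0 to 209.6 CPM in NPC MLL2dTAG. The summed level of 8 NPC markers was 142.4 to 176.8 CPM in ESC and 405.6 to 595.2 CPM in NPC. Of these 8, 7 were higher in NPC WT than in ESC WT, led by Ncam1 (22.2 and 171 CPM) and Pax6 (1.75 and 38.9 CPM), while Sox1 was not called (3.04 and 3.10 CPM), Sox3 went from 2.21 to 2.96 CPM, and Hes5 (0.451 CPM) and Fabp7 (1.80 CPM) stayed low in NPC WT. Endoderm markers rose in the same step, with 8 of them summing to 18 to 19.8 CPM in ESC WT and 238 to 244 CPM in NPC WT.

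In WT, differentiation was marked by the switching on of most Hox genes. The 38 genes summed to 19.1 ± 1.34 CPM in ESC WT (SD, n = 3) and to 1255 ± 16.7 CPM in NPC WT. Of the 38, 30 rose, 5 fell and 3 did not pass the test (edgeR quasi-likelihood F test, Benjamini-Hochberg adjusted p under 0.05). Over all genes 79.5% were called, 39.1% higher and 40.4% lower. The median log2 change was 5.95 for the Hox genes and -0.04 for all genes tested. The libraries of both stages did not overlap for 36 of the 38, against 79.7% of all genes. In bulk RNA, fewer cells that express a gene and less RNA per cell cannot be told apart. All 11 anterior and all 11 central members rose, and the 16 posterior members divided into 8 that rose, 5 that fell (Hoxa11, Hoxc12, Hoxc13, Hoxd10 and Hoxd13) and 3 that were not called (Hoxc11, Hoxd11 and Hoxd12).

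**Figure D1:**
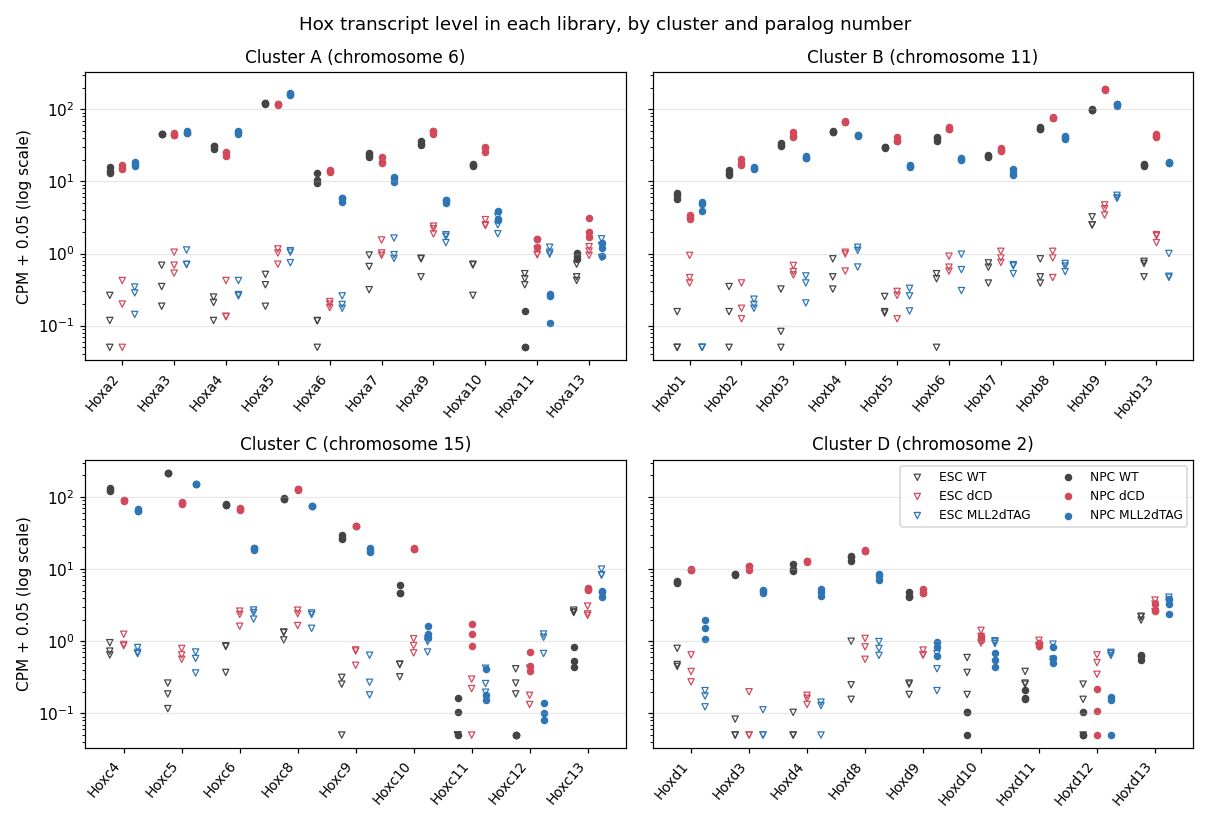
Level of each Hox gene in each of the 18 libraries, as CPM plus 0.05 on a log axis, with 1 panel per cluster and genes in the order of paralog number along the horizontal axis. Open triangles are ESC and filled circles NPC, and grey, red and blue mark WT, dCD and MLL2dTAG. NPC points lie above ESC points for the anterior and central genes, and the 2 stages come together or cross at the high-numbered end of clusters A, C and D.

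The rise was larger for low paralog numbers. Across the genes of a cluster, Spearman's rho between paralog number and the log2 change was -0.78 in A, -0.69 in B, -0.90 in C and -0.70 in D (a description over 10, 10, 9 and 9 genes that share the same 6 libraries). Hoxc5, a cervical to brachial gene, had the highest fitted change, from 0.213, 0.0663 and 0.136 CPM in the ESC WT libraries to 215.5, 216.6 and 217.7 CPM in NPC WT (log2 change 10.69, SE 0.10). Hoxd3 and Hoxd4 had 1 count each over the 3 ESC WT libraries, and their count ratios were 696 (95% counting interval 125 to 27533) and 858 (154 to 33932). Hoxb1, which marks rhombomere 4 of the hindbrain, had 2 counts in ESC WT and 661 in NPC WT, a ratio of 261 (72.0 to 2161). These intervals cover counting error only and take each count as an independent read. Of counts from 1 to 10, 60.8% to 66.5% were even, so the intervals may be too narrow.

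The 5 posterior genes that fell had been low in ESC as well. Hoxc13, known from hair and nail, was at 2.501, 2.45 and 2.65 CPM in ESC WT and 0.791, 0.479 and 0.391 CPM in NPC WT (log2 change -2.21, SE 0.23). Hoxd13, a gene of digits and genitalia, went from 1.92, 2.12 and 2.17 CPM to 0.569, 0.585 and 0.502 CPM (-1.91, SE 0.25). The groups did not overlap for either gene. Hoxa11, known from the forearm and kidney, went from 0.398 ± 0.0782 CPM to 0.0372 ± 0.0645 CPM and Hoxd10, a gene of lumbar motor neurons, from 0.332 ± 0.206 CPM to 0.0364 ± 0.0315 CPM. Hoxc12 had 19 counts in ESC WT and none in NPC WT, at least 8.01-fold lower against a floor of 3 counts over the group. The call of Hoxa13 (log2 change 0.81, SE 0.35) was the weakest of the 35 and was lost without ESC WT library 1 or 3 or NPC WT library 2 or 3, with upper quartile scaling and with halved counts.

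Levels between genes were compared per length, as CPM per kilobase of the exons that GENCODE M21 gives. In NPC WT the highest value was that of Hoxc5 in cluster C (70.1 ± 0.361 CPM per kb), followed by Hoxa5 in cluster A (64.2 ± 0.894 CPM per kb), and these 2 did not overlap. The highest of cluster B was Hoxb9 (38.4 ± 1.15 CPM per kb) and that of cluster D was Hoxd8 (5.22 ± 0.406 CPM per kb). The order within cluster D depended on the length used, since Hoxd4 (7.36 CPM per kb) and Hoxd3 (5.32 CPM per kb) lay above Hoxd8 when exons shared with other genes on the same strand were left out of the length. Cluster C held 44.0% of all Hox counts in NPC WT, cluster B 28.9%, cluster A 23.6% and cluster D 3.56%.

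Both edited lines were then compared with WT as NPC, to ask which Hox transcripts depend on MLL3 and MLL4 activity or on MLL2 after RA treatment. In dCD, 27 Hox genes rose, 5 fell and 6 were not called, where 53.5% of all genes were called (26.7% higher and 26.8% lower). In MLL2dTAG, 10 rose, 22 fell and 6 were not called, where 61.7% of all genes were called (33.3% higher and 28.4% lower). The share of higher genes among all MLL2dTAG calls was 54.0%, and 44.7% with upper quartile scaling and 45.7% with library totals. The Hox median was 0.46 on the log2 scale in dCD and -0.45 in MLL2dTAG, and the medians of all genes were -0.02 and 0.03. Both comparisons share the 3 NPC WT libraries. Libraries did not overlap for 33 Hox genes in dCD (60.1% of all genes) and for 34 in MLL2dTAG (67.9% of all genes). Without any 1 library, 28 of the 32 calls held in each of the 2 comparisons.

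Markers of other cell types moved with these groups. The summed level of 8 endoderm markers was 238 to 244 CPM in NPC WT, 200.1 to 203.5 CPM in dCD and 560.3 to 579.2 CPM in MLL2dTAG, where Gata4 was the highest of them and none was at 0. The 6 neural crest markers summed to 51.3 to 55.9, 136 to 139 and 94.4 to 95.6 CPM in the same order, and the 5 forebrain markers to 74.0 to 76.3, 28.4 to 30.5 and 27.1 to 28.7 CPM. The 8 mesoderm markers summed to 29.0 to 30.1, 16.8 to 19.5 and 30.8 to 34.2 CPM, with Msgn1 at 0 in all 3 groups. The 3 hindbrain markers were at 14.7 to 18.5, 15.9 to 18.03 and 22.3 to 24.3 CPM, and the 6 neuron markers at 254.8 to 260.0, 390.6 to 422 and 249.5 to 262.9 CPM. In ESC WT the neuron markers summed to 392.1 to 467.3 CPM, with Stmn2 at 326 CPM, so their sum did not rise with differentiation. In NPC, Stmn2 was at 25.6 CPM in WT and 93.9 in dCD, while Dcx was at 81.4 and 77.3 CPM. ESC markers were highest in MLL2dTAG NPC, as given above. The part of these cell types in the Hox results was not tested.

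**Figure D2:**
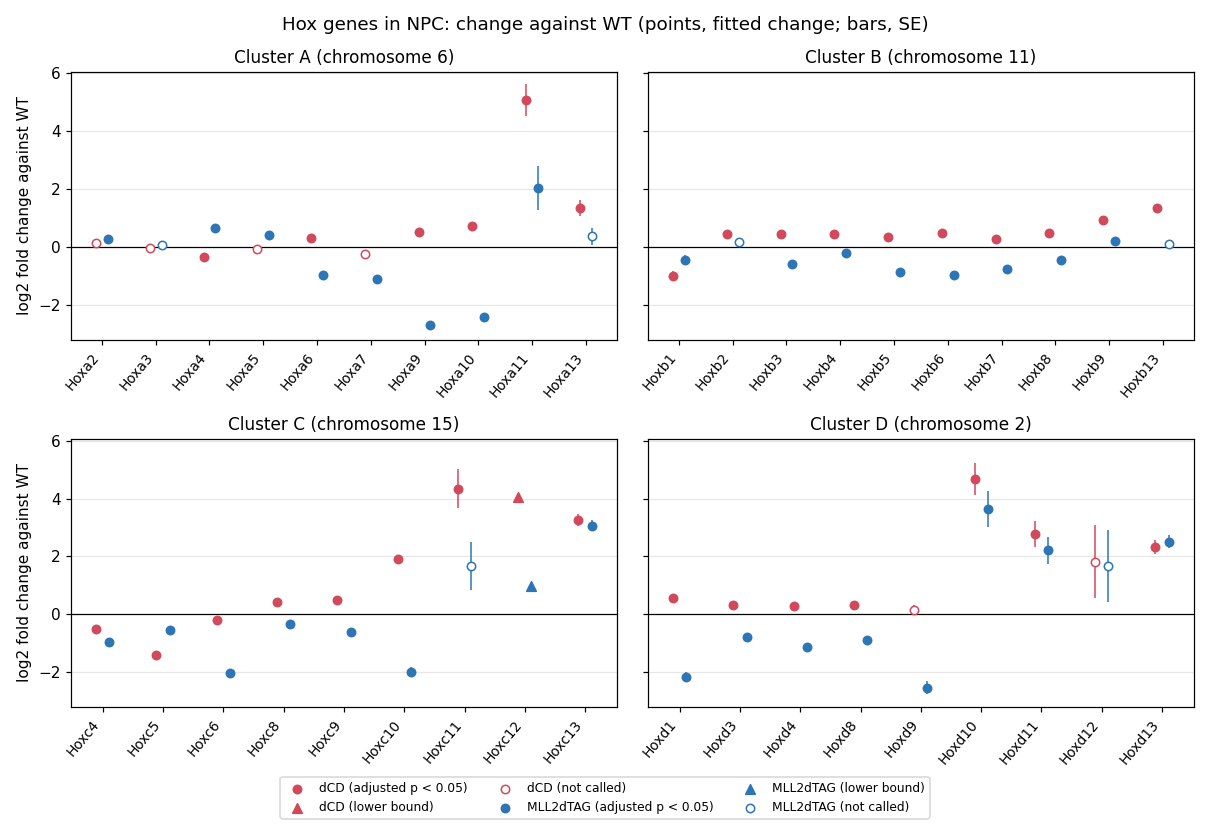
Fitted log2 change against WT of each Hox gene in NPC, in 1 panel per cluster with genes in the order of paralog number, for dCD (red) and MLL2dTAG (blue). Bars are SE, open circles did not pass the test, and triangles are lower bounds for Hoxc12, which had no count in NPC WT. In dCD the high-numbered genes lie above 0 (Hoxa11 at 5.08, Hoxd10 at 4.67), and in MLL2dTAG the genes of paralogs 6 to 10 in clusters A and C and of paralogs 8 and 9 in cluster D lie below 0 next to genes above 0 at the 5′ end.

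In dCD NPC the change followed the paralog number. Of the 16 posterior members 14 rose and none fell (Hoxd9 and Hoxd12 were not called), and 10 of them rose at least 2-fold, which 7.03% of all genes did. Among these 10, Hoxb13 (16.8 CPM) and Hoxc10 (5.1 CPM) averaged above 1 CPM in NPC WT, and all others lay at 0 to 0.871 CPM. Posterior members above 1 CPM in NPC WT changed by 0.16 to 1.92 on the log2 scale. Of the 11 anterior members 6 rose and 3 fell, and of the 11 central members 7 rose and 2 fell, with none higher by 2-fold in either class. The median log2 change was 0.30 for anterior, 0.32 for central and 1.87 for posterior members. Spearman's rho with paralog number was 0.73 in cluster A, 0.71 in B, 0.93 in C and 0.53 in D. Posterior genes made up 16.4 ± 0.397% of Hox counts in WT and 28.4 ± 0.429% in dCD (SD, n = 3).

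In MLL2dTAG NPC the central members moved in 1 direction and the posterior members in both. Of the 11 central members 10 fell and 1 rose (Hoxa5), and of the 11 anterior members 7 fell and 2 rose (Hoxa2 and Hoxa4). Of the 16 posterior members 7 rose and 5 fell, 6 and 4 of these by at least 2-fold, where 7.71% of all genes rose and 11.9% fell that far. The 5 that fell were Hoxa9, Hoxa10, Hoxc9, Hoxc10 and Hoxd9, and the 7 that rose were Hoxa11, Hoxb9, Hoxc12, Hoxc13, Hoxd10, Hoxd11 and Hoxd13. Among those 7, Hoxb9 averaged 98.9 CPM in NPC WT, and each of the others under 1 CPM. The median log2 change was -0.45 for anterior, -0.87 for central and 1.03 for posterior members (0.68 with Hoxc12 at its bound). The share of posterior genes was 17.9 ± 0.242% of Hox counts.

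**Figure D3:**
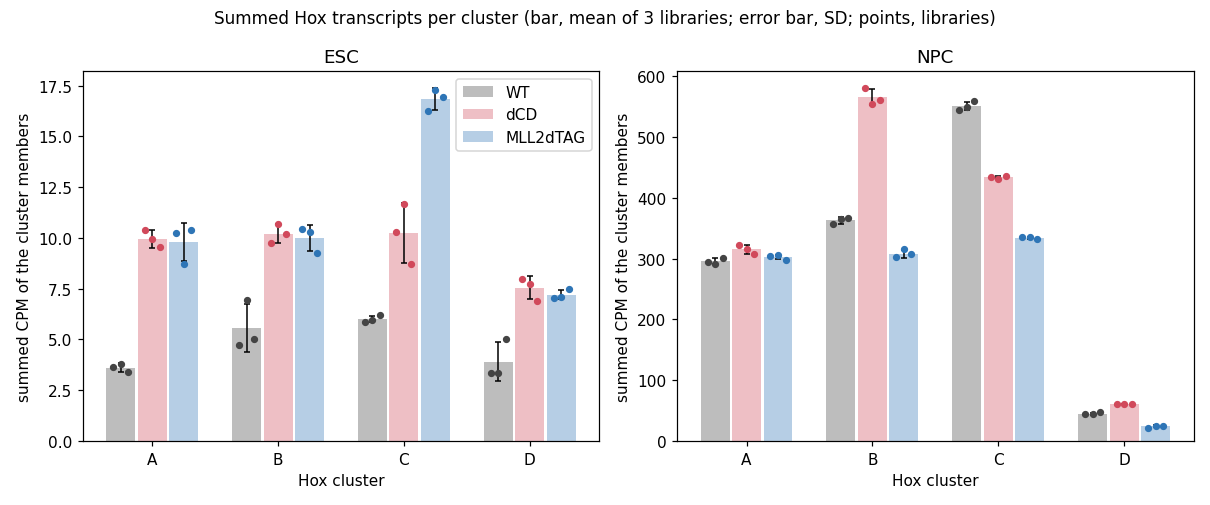
Summed CPM of the members of each Hox cluster in ESC (left) and NPC (right). Bars are means of 3 libraries, error bars SD, points libraries, and grey, red and blue mark WT, dCD and MLL2dTAG. In NPC cluster B stands at 565.7 CPM in dCD against 362.9 CPM in WT, cluster C at 434.1 CPM against 551.4 CPM, and clusters B, C and D are lowest in MLL2dTAG.

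The summed clusters differed in direction. In NPC, cluster A was at 295.7 ± 5.06 CPM in WT, 315.6 ± 7.30 in dCD and 302.6 ± 3.85 in MLL2dTAG. Cluster B was at 362.9 ± 5.04, 565.7 ± 12.9 and 308.4 ± 6.63 CPM, and cluster D at 44.7 ± 1.79, 60.6 ± 0.208 and 24.0 ± 1.96 CPM. Cluster C alone had its highest sum in WT, at 551.4 ± 6.95 CPM against 434.1 ± 2.07 in dCD and 334.8 ± 1.64 in MLL2dTAG. The range of the 3 WT libraries did not meet that of either line for clusters B, C and D, whereas in cluster A the WT range (290.9 to 301.0 CPM) met that of MLL2dTAG (298.3 to 305.8 CPM). These sums follow the most abundant genes and were not tested.

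Cluster A held genes of the hindbrain, neck and limb. Of its 3 anterior members Hoxa4 was called in both lines. Hoxa2, known for hindbrain and branchial arch patterning, was at 16.0, 12.9 and 13.9 CPM in WT, 17.05, 14.9 and 15.2 in dCD and 16.1, 17.5 and 18.7 in MLL2dTAG. Hoxa3 was at 44.8, 46.0 and 44.7 CPM, 43.6 to 46.6 in dCD and 47.1 to 49.98 in MLL2dTAG. Hoxa4 was at 31.4, 28.4 and 31.0 CPM in WT, fell to 25.6, 24.7 and 22.2 in dCD and rose to 49.7, 45.9 and 47.7 in MLL2dTAG (log2 change 0.66, SE 0.07). The rise of Hoxa2 in MLL2dTAG (0.30, SE 0.11) was lost without NPC WT library 2 or 3 or MLL2dTAG library 2 or 3 and with scaling by upper quartiles or library totals.

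Hoxa5, which acts in phrenic motor neurons and lung, was at 120.9, 118.6 and 121.9 CPM in WT, 117.8, 117.4 and 116.1 in dCD and 162.2, 168.6 and 158.1 in MLL2dTAG. It was the central gene that rose there (0.44, SE 0.04), while its neighbours on the 5′ side fell. Hoxa6 was at 9.46, 12.99 and 10.4 CPM in WT, 14.3, 13.4 and 13.7 in dCD and 5.87, 5.14 and 5.82 in MLL2dTAG. Hoxa7 was at 22.9, 21.7 and 24.5 CPM in WT, 18.6, 17.98 and 22.1 in dCD and 9.69, 11.6 and 11.1 in MLL2dTAG. MLL2dTAG lay below WT for both genes (log2 changes -0.97, SE 0.12, and -1.09, SE 0.11), and the rise of Hoxa6 in dCD (0.33, SE 0.11) was lost without NPC WT library 1 or 3.

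Hoxa9 and Hoxa10, which pattern limb and trunk and are known from blood progenitors and leukaemia, moved in opposite directions in the 2 lines. Hoxa9 was at 31.6, 32.8 and 36.5 CPM in WT, 50.7, 49.4 and 46.1 in dCD and 5.42, 4.90 and 5.40 in MLL2dTAG. Hoxa10 was at 17.2, 16.6 and 16.9 CPM in WT, 28.6, 30.2 and 25.8 in dCD and 3.79, 2.89 and 2.999 in MLL2dTAG. No 2 of the 3 groups overlapped for either gene. The log2 changes were 0.53 (SE 0.07) and -2.69 (SE 0.08) for Hoxa9 and 0.74 (SE 0.10) and -2.40 (SE 0.12) for Hoxa10. The edgeR quasi-likelihood test gave the fall of Hoxa9 a Benjamini-Hochberg adjusted p of 1.0e-24. On the 5′ side of Hoxa10 the direction changed. Hoxa11 was at 0, 0 and 0.112 CPM in WT (4 counts in all), 1.53, 1.54 and 1.17 CPM in dCD and 0.0593, 0.221 and 0.209 CPM in MLL2dTAG. Its log2 change in dCD was 5.08 (SE 0.55), and 4.50 without NPC WT library 2. In MLL2dTAG it was 2.04 (SE 0.76), lost without NPC WT library 1 or 2 or MLL2dTAG library 2 or 3. NPC WT library 3 held all of its WT counts, and without it the fitted changes (8.50 and 5.46) depended on the prior count of the fit and are no bound. Hoxa13, a gene of the limb tip and hindgut, was at 0.791, 0.958 and 0.865 CPM in WT, 1.62, 3.09 and 1.93 in dCD (1.34, SE 0.27) and 0.889, 1.35 and 1.15 in MLL2dTAG, where it was not called.

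Cluster B moved as a block in dCD. Of its 10 members 9 rose and Hoxb1 fell, and in MLL2dTAG 7 fell and Hoxb9 rose. Hoxb1 was at 6.86, 6.36 and 5.72 CPM in WT, 3.004, 3.20 and 3.37 in dCD and 3.88, 4.79 and 5.16 in MLL2dTAG. Both lines lay below WT (-0.98, SE 0.18, and -0.45, SE 0.17, the latter lost without NPC WT library 1 or 2 or MLL2dTAG library 1). Hoxb2, the next hindbrain gene, was at 12.4, 13.2 and 14.3 CPM in WT, 20.4, 16.9 and 18.1 in dCD and 14.7, 15.6 and 15.5 in MLL2dTAG, not called in the last.

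The genes from Hoxb3 to Hoxb8 lay above WT in dCD and below it in MLL2dTAG, with no overlap of the 3 groups for any of the 6. Hoxb3 was at 31.3, 34.1 and 31.6 CPM in WT, 48.4, 41.8 and 42.3 in dCD and 20.9, 21.2 and 22.3 in MLL2dTAG. Hoxb4, known from blood stem cells, was at 49.8, 49.1 and 49.1 CPM, 68.8, 65.8 and 67.6 CPM and 43.8, 43.6 and 42.6 CPM in the same order. Hoxb5 was at 29.7, 30.3 and 29.0 CPM in WT, 41.1, 36.1 and 36.9 in dCD and 16.8, 16.2 and 15.9 in MLL2dTAG. The size of the fall in MLL2dTAG grew from Hoxb4 (-0.19, SE 0.06) to Hoxb5 (-0.87, SE 0.07). Hoxb6 was at 36.7, 41.2 and 39.9 CPM in WT, 56.9, 53.8 and 54.2 in dCD and 20.3, 21.0 and 19.5 in MLL2dTAG. Hoxb7 was at 23.2, 22.2 and 21.5 CPM, 29.1, 27.1 and 26.2 CPM and 12.9, 14.7 and 12.4 CPM. Hoxb8, a trunk gene, was at 53.9, 53.5 and 56.5 CPM, 79.0, 76.4 and 76.1 CPM and 38.4, 42.2 and 39.4 CPM. In dCD the 6 changes were 0.30 to 0.50 on the log2 scale.

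The 2 posterior genes of cluster B rose more in dCD. Hoxb9, a thoracic gene, was at 97.1, 97.4 and 102 CPM in WT, 188 to 195 CPM in dCD and 112 to 118 CPM in MLL2dTAG. Its log2 changes were 0.95 (SE 0.04) and 0.23 (SE 0.04), and per length it had the highest level of the Hox genes in dCD NPC (74.5 CPM per kb). Hoxb13, a gene of the tail bud and prostate that lies far from the rest of the cluster, was at 16.4, 17.4 and 16.6 CPM in WT, 45.1, 41.5 and 42.7 in dCD (1.36, SE 0.08) and 18.1, 18.5 and 17.9 in MLL2dTAG, where it was not called (0.11, SE 0.08).

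**Figure D4:**
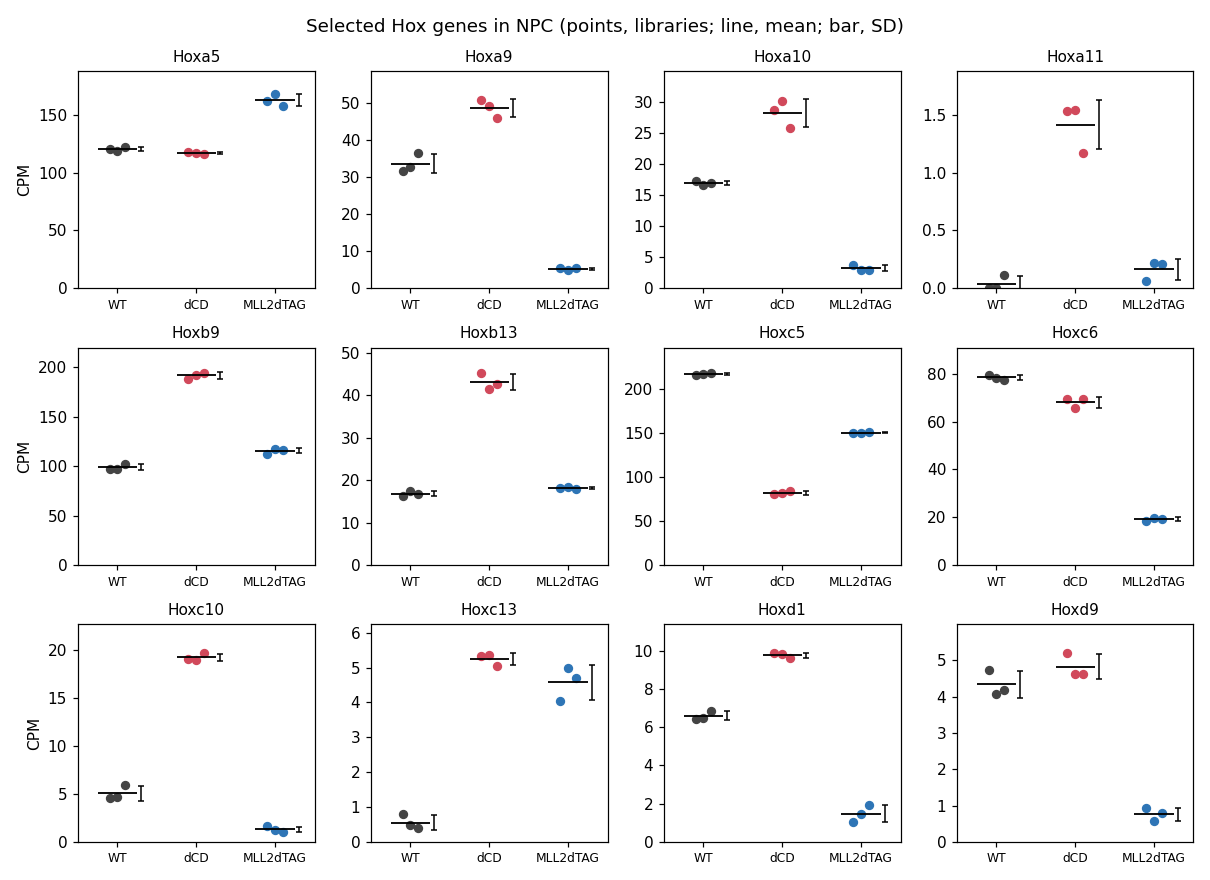
CPM of 12 Hox genes in NPC, 1 gene per panel with its own scale from 0. Points are libraries, horizontal lines means of 3 and bars SD, for WT (grey), dCD (red) and MLL2dTAG (blue). Hoxa9, Hoxa10, Hoxc10 and Hoxd1 are highest in dCD and lowest in MLL2dTAG, Hoxc5 is highest in WT, and Hoxc13 is high in both lines.

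In cluster C the 3′ genes fell and the 5′ genes rose in dCD. Hoxc4 was at 123, 126 and 132 CPM in WT, 92.3, 88.9 and 89.6 in dCD and 67.5, 63.7 and 64.1 in MLL2dTAG. Hoxc5 was at 215.5, 216.6 and 217.7 CPM in WT, 80.2, 81.6 and 84.1 in dCD and 150.5, 150.0 and 150.7 in MLL2dTAG. It was the sole Hox gene that fell by 2-fold in dCD (log2 change -1.40, SE 0.04; Benjamini-Hochberg adjusted p of 1.9e-25 by the edgeR test), as 4.86% of all genes did. Hoxc6, a brachial gene, was at 79.6, 78.3 and 77.6 CPM in WT, 69.4, 65.5 and 69.2 in dCD (-0.21, SE 0.06) and 18.3, 19.8 and 19.3 in MLL2dTAG (-2.03, SE 0.06). For these 3 genes neither line overlapped with WT.

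Hoxc8 and Hoxc9, which divide brachial from thoracic motor neurons, rose in dCD and fell in MLL2dTAG. Hoxc8 was at 95.1, 97.3 and 95.2 CPM in WT, 126 to 130 CPM in dCD and 75.4, 76.1 and 75.6 CPM in MLL2dTAG. Hoxc9 was at 27.2, 26.2 and 29.7 CPM, 39.2, 39.4 and 39.9 CPM and 18.2, 19.6 and 17.3 CPM. Hoxc10, a lumbar gene, showed the same directions with larger changes, at 4.62, 4.63 and 5.95 CPM in WT, 19.1, 19.0 and 19.7 in dCD (1.92, SE 0.12) and 1.60, 1.21 and 1.04 in MLL2dTAG (-1.99, SE 0.16). Beyond it the genes were near the floor in WT. Hoxc11 had 6 counts in WT, 127 in dCD (0.797, 1.21 and 1.67 CPM; log2 change 4.34, SE 0.68) and 22 in MLL2dTAG (not called). Hoxc12 had no count in WT, 49 in dCD (at least 16.7-fold higher) and 7 in MLL2dTAG (at least 1.97-fold higher, a call that was lost without any 1 NPC WT library or MLL2dTAG library 2). Hoxc13 was at 0.791, 0.479 and 0.391 CPM in WT, 5.33, 5.35 and 5.04 in dCD and 4.03, 4.99 and 4.69 in MLL2dTAG, and rose in both lines (3.26, SE 0.20, and 3.07, SE 0.20).

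Cluster D held the smallest sum in NPC. Hoxd1, known from sensory neurons for pain, was at 6.42, 6.49 and 6.87 CPM in WT, 9.87, 9.82 and 9.62 in dCD (0.57, SE 0.15) and 1.04, 1.46 and 1.93 in MLL2dTAG (-2.15, SE 0.18). Hoxd3 was at 8.51, 8.54 and 8.12 CPM, 9.78, 10.9 and 10.8 CPM and 5.13, 4.99 and 4.64 CPM in the same order. Hoxd4 was at 10.1, 9.31 and 11.7 CPM, 12.8, 12.8 and 12.7 CPM and 4.18, 5.32 and 4.69 CPM. Exons of Hoxd3 and Hoxd4 overlap on the same strand over 62.4% and 52.3% of their lengths, so their reads cannot be fully told apart. Hoxd8 was at 13.1, 14.6 and 15.3 CPM in WT, 17.9, 17.6 and 18.1 in dCD and 7.06, 8.45 and 7.98 in MLL2dTAG. The rises of Hoxd3, Hoxd4 and Hoxd8 in dCD (0.30 to 0.32) were each lost without most of the 6 single libraries, and their falls in MLL2dTAG (-0.77, -1.12 and -0.87) were not.

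Hoxd9 was at 4.74, 4.07 and 4.19 CPM in WT, 5.21, 4.63 and 4.63 in dCD (not called) and 0.919, 0.574 and 0.782 in MLL2dTAG (-2.53, SE 0.22). From Hoxd10 on, the genes were higher in both lines than in WT. Hoxd10 was at 0, 0.0532 and 0.0558 CPM in WT, 1.13, 1.05 and 0.997 in dCD (4.67, SE 0.56) and 0.504, 0.640 and 0.391 in MLL2dTAG (3.63, SE 0.61). Hoxd11 was at 0.106 to 0.158 CPM, 0.797 to 0.910 CPM (2.78, SE 0.44) and 0.445 to 0.782 CPM (2.21, SE 0.45). Hoxd13 was at 0.569, 0.585 and 0.502 CPM in WT, 3.19, 2.54 and 2.64 in dCD (2.32, SE 0.23) and 2.37, 3.22 and 3.83 in MLL2dTAG (2.51, SE 0.23). Hoxd12 had 2 counts in WT and 8 in each line, ratios of 4.08 (95% counting interval 0.814 to 39.4) and 3.38 (0.675 to 32.7), and was not called.

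The 2 lines were also set against each other. In NPC, MLL2dTAG was lower than dCD for 28 Hox genes and higher for 4 (Hoxa4, Hoxa5, Hoxb1 and Hoxc5), where 55.9% of all genes were called, 31.6% higher and 24.3% lower. With scaling by upper quartiles or library totals the share of higher genes among all calls moved from 56.5% to 45.2% and 45.3%. The Hox median was -1.03 and that of all genes 0.05, and 20 Hox genes were lower by at least 2-fold, against 11.8% of all genes. Hoxc10 (-3.91, SE 0.15), Hoxa9 (-3.22, SE 0.08) and Hoxa10 (-3.14, SE 0.12) differed most among genes of at least 1 CPM. The calls of Hoxa13, Hoxb1, Hoxb2 and Hoxd10 were lost without 1 library or another. For Hoxc13 the difference was -0.19 (SE 0.14), for Hoxd13 0.18 (SE 0.18) and for Hoxd11 -0.57 (SE 0.34), and none of the 3 was called. In ESC, 7 Hox genes differed between the lines (3 higher and 4 lower in MLL2dTAG), where 47.2% of all genes were called, 23.4% higher and 23.7% lower.

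Neighbouring genes changed by like amounts in NPC. The median absolute difference in log2 change was 0.43 between the 34 pairs of neighbours within a cluster in dCD, 0.66 between the 40 pairs of the same paralog number in different clusters and 1.04 between all 703 pairs. In MLL2dTAG the same medians were 0.68, 0.85 and 1.48. The pairs share genes and libraries, and the values are a description.

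In ESC, before differentiation, Hox levels were low in every group and higher in both edited lines than in WT. The sum was 19.1 ± 1.34 CPM in WT, 37.9 ± 2.37 in dCD and 43.8 ± 0.376 in MLL2dTAG (SD, n = 3). In dCD 23 of the 38 rose, none fell and 15 were not called, where 48.3% of all genes were called, 25.7% higher and 22.6% lower. In MLL2dTAG 20 rose, Hoxd1 fell and 17 were not called, where 56.9% of all genes were called, 28.7% higher and 28.2% lower. Libraries did not overlap with WT for 23 Hox genes in dCD (51.8% of all genes) and for 21 in MLL2dTAG (59.7% of all genes). The medians were 1.16 and 1.15 against 0.02 and -0.001 for all genes, and both comparisons share the ESC WT libraries. Rises of at least 2-fold were called for 20 Hox genes in dCD and 17 in MLL2dTAG, against 5.66% and 6.44% of all genes. Of the 16 posterior members 14 rose in dCD and 13 in MLL2dTAG. Without any 1 library 16 of the 23 and 18 of the 21 calls held, and those lost were Hoxa3, Hoxa7, Hoxa13, Hoxc11, Hoxd4, Hoxd12 and Hoxd13 in dCD and Hoxa7, Hoxb4 and Hoxd11 in MLL2dTAG. The 8 endoderm markers were at up to 19.8 CPM in the ESC WT libraries, 13.9 to 14.3 CPM in dCD and 31.9 to 35.8 CPM in MLL2dTAG, and the 8 mesoderm markers at 24.1 to 24.8, 44.1 to 49.1 and 37.1 to 38.9 CPM. The mesoderm sum followed Tcf15, at 16.1, 27.4 and 31.5 CPM in the same order. Other members went differently, with T at 4.08, 15.5 and 1.63 CPM and Tbx6 at 2.41, 1.64 and 1.59 CPM. The part of these cell types in the Hox values was not tested.

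**Figure D5:**
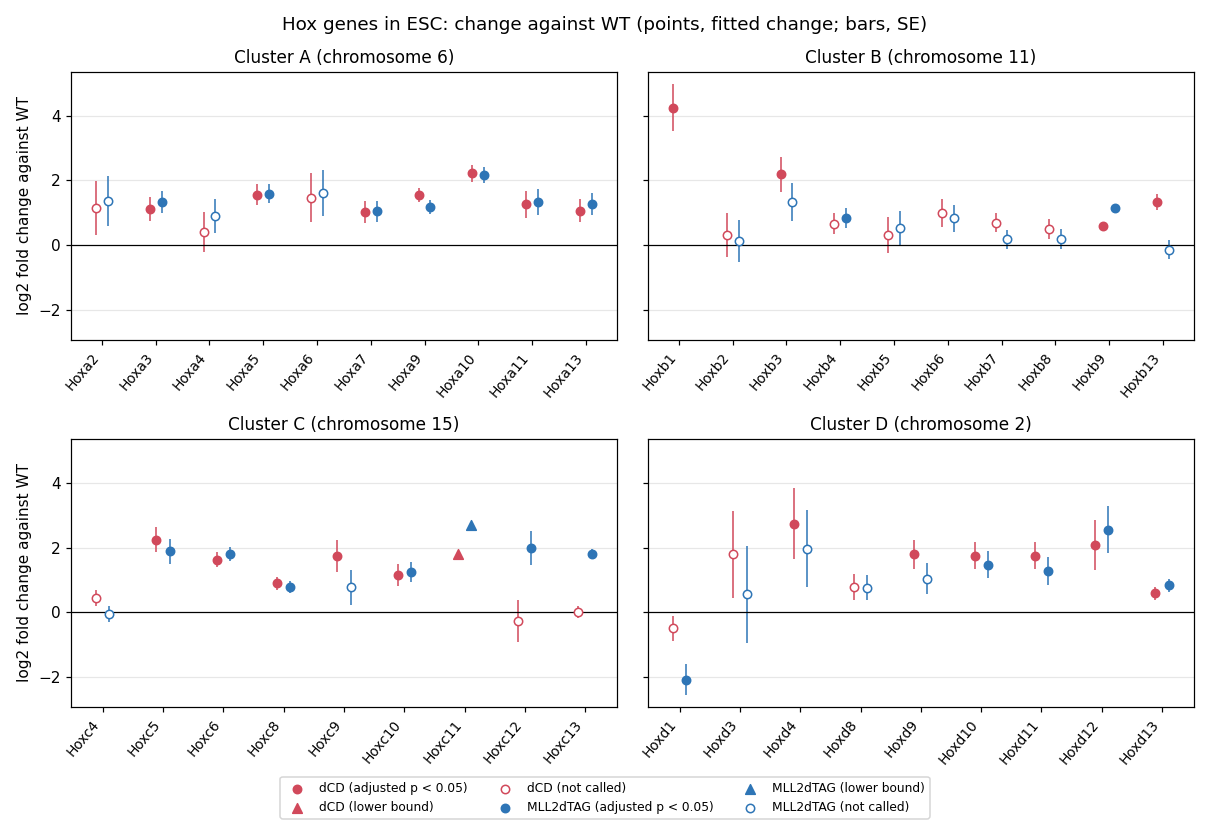
Fitted log2 change against WT of each Hox gene in ESC, in 1 panel per cluster with genes in the order of paralog number, for dCD (red) and MLL2dTAG (blue). Bars are SE, open circles did not pass the test, triangles are lower bounds for Hoxc11, which had no count in ESC WT, and Hoxb1 of MLL2dTAG is left out because both groups were at or under the floor. Most points lie between 0 and 3, and Hoxd1 of MLL2dTAG lies at -2.09.

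Hoxa10 was among the genes of at least 1 CPM that rose most in both lines, from 0.213, 0.663 and 0.645 CPM in ESC WT to 2.90, 2.40 and 2.46 in dCD (2.23, SE 0.26) and 3.22, 1.83 and 2.45 in MLL2dTAG (2.17, SE 0.26). Hoxa9 was at 0.426, 0.796 and 0.815 CPM in WT, 2.35, 1.82 and 2.16 in dCD and 1.68, 1.37 and 1.77 in MLL2dTAG. Hoxc6 was at 0.319, 0.796 and 0.815 CPM, 2.30, 2.57 and 1.56 CPM and 1.98, 2.45 and 2.66 CPM. The edited lines did not overlap with WT for these 3 genes, and all 3 fell in MLL2dTAG NPC. Hoxa11 was at 0.319, 0.398 and 0.476 CPM in WT, 1.11, 0.911 and 0.932 in dCD and 1.17, 0.931 and 0.992 in MLL2dTAG. Hoxa13 was at 0.426, 0.663 and 0.374 CPM, 1.19, 1.03 and 0.894 CPM and 1.25, 1.55 and 0.835 CPM. Both rose in both lines, by 1.06 to 1.33 on the log2 scale. Hoxa7 overlapped between WT (0.905, 0.265 and 0.611 CPM) and both lines (0.896, 1.49 and 0.969 CPM in dCD, 0.915, 0.807 and 1.59 CPM in MLL2dTAG), and its calls (1.01, SE 0.35, and 1.04, SE 0.33) are among those lost.

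Other genes differed between the lines in ESC. Hoxc13 was at 2.501, 2.45 and 2.65 CPM in WT, 2.35, 3.02 and 2.24 in dCD and 8.20, 8.32 and 9.97 in MLL2dTAG (1.80, SE 0.15). Hoxb13 was at 0.426, 0.729 and 0.679 CPM in WT, 1.37, 1.78 and 1.71 in dCD (1.35, SE 0.25) and 0.952, 0.434 and 0.418 in MLL2dTAG. The direct tests between the lines called both (1.81, SE 0.15, and -1.50, SE 0.24). Hoxb1 had 2 counts in ESC WT, 42 in dCD and none in MLL2dTAG, a ratio of 22.2 (95% counting interval 5.77 to 189) for dCD against WT and at least 18.4-fold lower in MLL2dTAG than in dCD. Hoxb9 was at 2.45, 3.18 and 2.45 CPM in WT, 3.37, 4.68 and 4.14 in dCD (0.58, SE 0.13) and 6.37, 5.83 and 5.82 CPM in MLL2dTAG (1.13, SE 0.11). Hoxd1 was at 0.426, 0.398 and 0.747 CPM in WT and 0.0732, 0.124 and 0.157 CPM in MLL2dTAG (-2.09, SE 0.47), and it also fell there as NPC. Hoxd10 was at 0.319, 0.133 and 0.543 CPM in WT and 0.896, 1.37 and 1.12 CPM in dCD (1.75, SE 0.41, and 2.42 without ESC WT library 3).

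The change of each line in NPC was compared with its change in ESC. For dCD 7 Hox genes had a higher and 12 a lower log2 change in NPC than in ESC, where 42.9% of all genes were called (20.0% and 22.9%). For MLL2dTAG 3 had a higher and 21 a lower change, where 49.0% of all genes were called (26.4% and 22.6%). The 3 with the higher change were Hoxc13, Hoxd10 and Hoxd13, and they were among the 7 of dCD. Among the 11 central members 10 had a lower change in MLL2dTAG NPC, with a median difference of -1.62.

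Promoter sequences were looked up for members that moved together. Of the 38 genes 22 were in the RefSeq table of promoters (build GRCm38.p6, 250 bases before to 50 bases after the start, 27025 windows in all). Where a gene had several windows, the one furthest 5′ was kept, and its other starts were not searched. The 5 shown are Hoxa5, the central gene that rose in MLL2dTAG NPC, and Hoxa9, Hoxa10, Hoxd1 and Hoxd9, which with Hoxc6 fell there by over 2 on the log2 scale. Capitals mark CpG, the dinucleotide whose density is known to attract MLL2 and Polycomb proteins. Hoxa5 is at chr6:52204538-52204837, Hoxa9 at chr6:52227321-52227620 and Hoxa10 at chr6:52240805-52241104, all on the minus strand, and Hoxd1 at chr2:74762730-74763029 and Hoxd9 at chr2:74697513-74697812, both on the plus strand.
Hoxa5: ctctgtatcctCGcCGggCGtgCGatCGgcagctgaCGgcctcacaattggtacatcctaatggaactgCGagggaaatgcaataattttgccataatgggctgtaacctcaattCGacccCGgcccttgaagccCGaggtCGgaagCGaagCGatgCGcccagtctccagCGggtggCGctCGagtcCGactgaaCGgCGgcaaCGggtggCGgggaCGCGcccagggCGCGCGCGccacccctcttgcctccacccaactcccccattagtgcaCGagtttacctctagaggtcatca
Hoxa9: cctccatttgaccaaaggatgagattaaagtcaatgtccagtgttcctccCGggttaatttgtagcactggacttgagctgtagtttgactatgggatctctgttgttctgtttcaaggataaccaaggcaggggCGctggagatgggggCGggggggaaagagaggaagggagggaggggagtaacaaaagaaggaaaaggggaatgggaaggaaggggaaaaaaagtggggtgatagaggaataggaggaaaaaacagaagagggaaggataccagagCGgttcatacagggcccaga
Hoxa10: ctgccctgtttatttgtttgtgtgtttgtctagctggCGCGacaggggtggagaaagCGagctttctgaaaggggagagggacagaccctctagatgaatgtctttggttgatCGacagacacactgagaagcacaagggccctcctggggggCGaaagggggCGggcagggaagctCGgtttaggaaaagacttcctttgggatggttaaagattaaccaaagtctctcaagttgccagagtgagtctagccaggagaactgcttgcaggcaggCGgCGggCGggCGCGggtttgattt
Hoxd1: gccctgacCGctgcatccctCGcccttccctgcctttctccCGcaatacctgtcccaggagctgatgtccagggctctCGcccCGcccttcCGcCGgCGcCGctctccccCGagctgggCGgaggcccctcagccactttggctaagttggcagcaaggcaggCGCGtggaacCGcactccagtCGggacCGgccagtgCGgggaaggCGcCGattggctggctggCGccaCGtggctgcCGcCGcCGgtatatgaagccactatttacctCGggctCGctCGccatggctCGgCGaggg
Hoxd9: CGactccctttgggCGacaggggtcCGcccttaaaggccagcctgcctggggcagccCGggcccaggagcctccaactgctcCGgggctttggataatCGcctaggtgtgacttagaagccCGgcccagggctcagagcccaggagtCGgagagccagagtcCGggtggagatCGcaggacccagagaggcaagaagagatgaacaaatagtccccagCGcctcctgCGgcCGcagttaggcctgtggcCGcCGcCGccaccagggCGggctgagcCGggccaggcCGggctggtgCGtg
In these windows Hoxa5 and Hoxd1 held 29 CpG each, Hoxd9 20, Hoxa10 12 and Hoxa9 4, so the windows of the 4 genes that fell lay on both sides of the Hox median. The 22 windows held 4 to 45 CpG, with a median of 13.5 against 7 over all windows, and a median GC content of 56.8% against 52.7%. Motifs were searched on both strands. TATAAA was in 3 of 22 windows (13.6%, and 14.2% of all windows), TGATNNAT, a site for PBX and HOX proteins together, in 3 (13.6%, and 9.02%), and TTTATG, a site for CDX proteins that shares TTTAT with the reverse of TATAAA, in 5 (22.7%, and 12.2%). Direct repeats of AGGTCA or AGTTCA with 5 or 2 bases between them, sites for RA receptors, were in 0 of 22 and in 0.0407% of all windows for each spacing.

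Genes that work with the Hox genes were counted from fixed lists. Over all genes, 79.5% were called in WT differentiation. In ESC 48.3% of all genes were called in dCD and 56.9% in MLL2dTAG, and in NPC 53.5% and 61.7%. Among 9 TALE cofactors (the Pbx, Meis and Pknox genes, whose proteins bind DNA with HOX proteins), 8 rose and 1 fell in WT differentiation. The log2 change was 7.74 for Meis2 (SE 0.07), at 1.84 CPM in ESC and 390.3 CPM in NPC, and 7.33 for Meis1 (SE 0.07), at 1.33 and 218 CPM. In ESC 5 rose and 1 fell in dCD, and 7 rose and 2 fell in MLL2dTAG, with Meis1 at 4.05 CPM in dCD and 11.1 CPM in MLL2dTAG (3.04, SE 0.11). In NPC 2 rose and 5 fell in each line. Pbx3 had the largest change there, from 78.1 to 37.1 CPM in MLL2dTAG (-1.07, SE 0.06).

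Of 14 regulators upstream of Hox genes 13 were tested. The counts below stand beside called shares of all genes of 79.5% in WT differentiation, 53.5% and 61.7% in dCD and MLL2dTAG NPC, and 48.3% and 56.9% in ESC. In WT differentiation 9 rose and 4 fell, with Rarb, an RA receptor that is itself induced by RA, from 0.416 to 226 CPM (9.24, SE 0.09). In NPC 5 rose and 3 fell in dCD and 9 rose and 3 fell in MLL2dTAG. Aldh1a2, the enzyme that makes RA, was at 125 CPM in WT, 50.1 in dCD (-1.32, SE 0.05) and 20.3 in MLL2dTAG (-2.62, SE 0.06). Cyp26a1, which breaks RA down, was at 135, 101 and 251 CPM (-0.41, SE 0.04, and 0.90, SE 0.04). Cdx1, an activator of trunk Hox genes, was at 0.349 CPM in WT, 0.355 in dCD and 1.40 in MLL2dTAG (1.99, SE 0.33). Egr2, a gene of hindbrain segments, was at 1.37, 1.43 and 0.424 CPM (-1.67, SE 0.32, in MLL2dTAG). In ESC 7 rose and 4 fell in dCD, and 9 rose and 2 fell in MLL2dTAG, with Gbx2, a hindbrain gene, at 5.87 CPM in WT, 29.7 in dCD and 38.7 in MLL2dTAG.

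Of 16 noncoding RNAs of the clusters 10 were tested. For this list and the next, the called shares of all genes were 79.5% in WT differentiation, 53.5% in dCD NPC and 61.7% in MLL2dTAG NPC. In WT differentiation 8 rose and 1 fell, in dCD NPC 6 rose and 1 fell, and in MLL2dTAG NPC 2 rose and 3 fell. Hoxb5os was at 17.9 CPM in NPC WT, 36.4 in dCD (1.02, SE 0.09) and 17.2 in MLL2dTAG, and Mir196a-1 at 0.111, 1.34 and 0.446 CPM (3.51, SE 0.43, and 1.91, SE 0.48). The sources used here do not state the strand setting of the counting. Exons of other genes lie antisense to 52.9% of Hoxb3, 34.98% of Hoxa11, 27.3% of Hoxb2 and 25.4% of Hoxa3. Depending on the settings, such overlap may have added antisense reads to these genes or left out reads that match both genes. Of 16 protein-coding genes beside the clusters 15 were tested, and 7 rose and 7 fell in WT differentiation, 4 rose and 7 fell in dCD NPC, and 5 rose and 6 fell in MLL2dTAG NPC. Calcoco2, a selective autophagy receptor, had the largest change there, from 0.377 to 6.69 CPM in MLL2dTAG (4.16, SE 0.20).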

How the data were processed

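Counts of reads per gene symbol were used as the authors deposited them, without normalization. The library kit was TruSeq Stranded mRNA, per the labels' protocols, and per the submitters' processing notes HTSeq was used. For these counts, the aligner, genome build and strand setting are not given in the sources used here. All 37 mitochondrial genes had 0 counts. Columns were assigned to samples by name. The series listed 36 samples in 14 groups, and 18 columns, 6 under 3 repeated names and 12 under names that match no label, were not used here.

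The 18 libraries were fitted in 1 model with edgeR 4.0.16 (R 4.3.3): filterByExpr by group (20511 genes), TMM factors (0.967 to 1.05), 1 mean per group, 12 residual degrees of freedom. The biological coefficient of variation was 4.01%. The two-sided quasi-likelihood F test was adjusted by Benjamini-Hochberg over all genes and called at 0.05. The SE is the fitted change over the root of F. A fold against a group without counts used 3 counts over that group. With 1 to 3 counts, a ratio with an exact 95% interval is given. Both the floor and the interval take each count as an independent read. Between replicates chi-square was 2.15 to 9.52 per degree of freedom, with each count taken as an independent read. Counts from 1 to 10 were mostly even, so reads may not be independent. The lower of these chi-square values therefore cannot be set apart from sampling noise.

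Values per library are given for genes called with an absolute log2 change of at least 1 and a mean of at least 1 CPM, and in NPC for further members. The members and lists were chosen with earlier results of these data known. Alternatives were RLE, upper quartile or no scaling factors, DESeq2 1.42.0, other filters, halved counts (60.8% to 66.5% of counts from 1 to 10 were even), the compared groups alone, a replicate block, and leaving out each library. The fit was tested on simulated data. Promoters came from RefSeq (GRCm38.p6). No protein sequences were printed.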

Additional observations from a re-analysis of the deposited data

Results flagged for a closer look

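Listed here are Hox genes that averaged 1 CPM or more in some group and whose change against WT differed between NPC and ESC by at least 1 on the log2 scale in the interaction test (edgeR quasi-likelihood, Benjamini-Hochberg adjusted p under 0.05). Each value is the log2 change in NPC minus that in ESC. The tests of both lines share the WT libraries of both stages.

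For dCD the difference was negative for 11 genes. It was -1.14 for Hoxa3, -1.61 for Hoxa5, -1.25 for Hoxa7, -1.03 for Hoxa9 and -1.49 for Hoxa10 in cluster A. In cluster B it was -5.24 for Hoxb1, which had 2 counts in ESC WT, and -1.74 for Hoxb3. In cluster C it was -3.64 for Hoxc5, -1.83 for Hoxc6 and -1.23 for Hoxc9, and in cluster D -1.64 for Hoxd9. It was positive for Hoxa11 (3.81), Hoxc13 (3.26), Hoxd1 (1.07), Hoxd10 (2.91) and Hoxd13 (1.74). Hoxc12, under 1 CPM in every group, also passed the test as higher, and because it had no count in NPC WT its fitted size is no bound and is not given. The calls of Hoxa3, Hoxb3, Hoxc9 and Hoxd1 were lost without 1 library or another.

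For MLL2dTAG the difference was negative for 18 genes. In cluster A it was -1.25 for Hoxa3, -1.15 for Hoxa5, -2.58 for Hoxa6, -2.13 for Hoxa7, -3.86 for Hoxa9 and -4.57 for Hoxa10. In cluster B it was -1.93 for Hoxb3, -1.02 for Hoxb4, -1.40 for Hoxb5 and -1.79 for Hoxb6. In cluster C it was -2.41 for Hoxc5, -3.83 for Hoxc6, -1.11 for Hoxc8, -1.36 for Hoxc9 and -3.24 for Hoxc10, and in cluster D -3.09 for Hoxd4, -1.62 for Hoxd8 and -3.56 for Hoxd9. It was positive for Hoxc13 (1.27), Hoxd10 (2.16) and Hoxd13 (1.68). The calls of Hoxa3, Hoxa5, Hoxb4, Hoxb5, Hoxc9, Hoxd4 and Hoxd10 were lost without 1 library or another.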

How the results depend on the processing

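No Hox gene reversed its direction under any alternative run for a called value. Counts of Hox genes called stayed within 1.5 times in all but 4 cases. With the compared groups alone, 2 genes rather than 5 were lower in NPC WT than in ESC WT, and 4 rather than 7 differed between MLL2dTAG and dCD in ESC, 1 rather than 4 lower. Fewer Hox genes were tested in those fits (32 and 28 of 38). Over the fits without 1 library the last count was 2 to 5, with 2 without ESC dCD replicate 1. Scaling moved the median of all genes by at most 0.09. Leaving out 1 library gave 28 to 30 called Hox genes for dCD NPC and 28 to 31 for MLL2dTAG NPC.

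Same-numbered libraries deviated from their groups with correlations of -0.05 to 0.03. Such weak values, from groups of 3 libraries, cannot show whether the replicate numbers in the labels pair the samples. In WT across the stages 6 of 6 libraries deviated most like the library of their own number, and in the other comparisons of 2 groups 0 to 2 of 6 did. With a replicate block, 32 Hox genes were called in each NPC line, as without it, and in ESC 24 in dCD and 21 in MLL2dTAG. Depth limits Hoxa11, Hoxc11, Hoxc12, Hoxd10 and Hoxd12 most, which had 0 to 6 counts over the NPC WT libraries.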
